A study of Homo sapiens with 6 samples.

Results

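ATP-binding cassette (ABC) genes are the members of one large superfamily, recognised here by a gene symbol that begins with ABCA to ABCG and a number. Protein-coding genes with such a symbol numbered 46 of the 40895 genes in the deposited tables. No measured value entered the choice. They were sorted by the known role of their products into 10 drug efflux pumps, 18 lipid and sterol transporters, 9 transporters of organelle membranes, 4 channel regulators and other ABCC genes, and 5 soluble proteins that are not transporters. The measurements were polyA RNA-seq counts from A375SM, a human melanoma line derived from metastases of A375. Each group has 3 libraries: cells transduced with a control short hairpin RNA, written shCtrl, and cells transduced with one directed at PRAME mRNA, written shPRAME. The genotype label is WT for all 6 libraries, and all carry 1 batch label. The sources used here do not give the hairpin sequence, the number of hairpins or the time after transduction. They also do not say whether the libraries came from separate transductions or separate cultures, so a p-value covers no more than the variation among 3 libraries of a group, possibly technical in origin.

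ABC proteins share a nucleotide-binding domain that binds and hydrolyses ATP. In the transporters this domain drives a membrane-spanning part that moves a substrate across a bilayer. Pumps such as ABCB1, ABCC1 and ABCG2 export drugs from the cell and are known for multidrug resistance of tumours, and ABCB5 has been described in melanoma. Most ABCA and several ABCG proteins move phospholipids and sterols, some ABCB proteins serve mitochondria or lysosomes while others work at the plasma membrane, most ABCD proteins serve peroxisomes, and ABCE1 and the ABCF proteins have no membrane part and act on ribosomes and translation.

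Promoter sequences are shown first for the lipid and sterol transporters that passed with a fold of at least 2 either way, averaged 1 CPM or more and had an entry in the RefSeq promoter table (assembly GRCh38.p14), namely ABCA1, ABCA3, ABCA7 and ABCA10, and for ABCA9, ABCA6 and ABCA5 of the same chromosome 17 cluster as ABCA10. CPM are counts scaled to a common library size. ABCA1 is given over the 250 bases before its start, because it held the only DR4 match of the family, and the others over 120 bases. Letters run 5′ to 3′ on the gene's strand, and capitals mark motif matches on either strand.
ABCA1, chr9:104928156-104928405, minus strand: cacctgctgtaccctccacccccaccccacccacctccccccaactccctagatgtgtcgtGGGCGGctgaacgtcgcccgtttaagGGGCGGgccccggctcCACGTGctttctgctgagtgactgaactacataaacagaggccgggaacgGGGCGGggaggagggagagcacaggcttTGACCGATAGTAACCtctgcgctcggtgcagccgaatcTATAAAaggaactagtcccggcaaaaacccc
ABCA3, chr16:2340729-2340848, minus strand: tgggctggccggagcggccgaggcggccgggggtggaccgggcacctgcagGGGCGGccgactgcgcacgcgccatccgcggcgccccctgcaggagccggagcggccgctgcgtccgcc
ABCA7, chr19:1039987-1040106, plus strand: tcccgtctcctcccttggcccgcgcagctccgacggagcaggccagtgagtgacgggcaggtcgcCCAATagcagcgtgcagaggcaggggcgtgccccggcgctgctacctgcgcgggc
ABCA9, chr17:69060928-69061047, minus strand: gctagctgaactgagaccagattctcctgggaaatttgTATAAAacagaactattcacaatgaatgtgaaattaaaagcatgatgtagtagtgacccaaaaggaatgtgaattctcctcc
ABCA6, chr17:69141896-69142015, minus strand: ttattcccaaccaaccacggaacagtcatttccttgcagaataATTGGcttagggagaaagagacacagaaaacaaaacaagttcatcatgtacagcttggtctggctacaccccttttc
ABCA10, chr17:69244849-69244968, minus strand: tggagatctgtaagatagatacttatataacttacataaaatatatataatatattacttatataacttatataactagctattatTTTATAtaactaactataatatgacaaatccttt
ABCA5, chr17:69327134-69327253, minus strand: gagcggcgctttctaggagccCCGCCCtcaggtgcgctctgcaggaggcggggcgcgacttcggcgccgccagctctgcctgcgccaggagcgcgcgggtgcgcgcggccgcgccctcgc
The motifs searched were the GC box GGGCGG, the CCAAT box, the E-box CACGTG, the cyclic AMP response element TGACGTCA, the TATA box TATAAA and DR4, a spaced repeat of the kind bound by LXR and RXR receptors, searched as GGTNA and GGTCA with 5 bases between. The ABCA1 sequence held GC boxes, 1 E-box, 1 TATA box and 1 DR4 match, the last on the reverse strand. ABCA3 and ABCA5 had GC-rich sequences with a GC box (83.3% and 79.2% G or C over the bases shown), and ABCA7 held a CCAAT box at 73.3%, whereas ABCA9, ABCA6 and ABCA10 stood at 37.5%, 42.5% and 17.5%. The ABCA9 entry begins at a transcript start inside the annotated gene. A match describes the letters only.

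Over the 250 bases before each start, 36 of the 46 genes had 54 promoters in the table. The shares below count promoters and not genes. Some genes have several, some ABCG2 windows overlap, and ABCF2 and ABCF2-H2BK1 have the same window. Their median G and C content was 61.6%, against 58% over all 35116 promoters. The 38 promoters of ABC genes with enough counts to be tested had a median of 65% G or C and 19.5 CpG dinucleotides, and the 16 promoters of ABC genes left untested had 51% and 7. A GC box stood in 48.1% of the ABC promoters and in 42.6% of all promoters. The E-box CACGTG stood in 16.7% of ABC promoters and 6.34% of all, the CCAAT box in 22.2% and 32.01%, and the TATA box in 11.1% and 10.7%. The DR4 match was found in 1 ABC promoter, that of ABCA1, and in 0.216% of all promoters. Among the 10 promoters of organelle transporters, from 7 genes, 9 held a GC box. So did 4 of the 5 promoters of soluble members and 60.5% of the 38 promoters of tested ABC genes.

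Before the ABC genes, the target of the hairpin was checked. PRAME counts were 5623, 5356 and 5083 with the control hairpin, against 1803, 1993 and 1857 with the PRAME hairpin, so every library carried the level its label calls for. Libraries totalled 30842788 to 34107332 counts, and 15954 genes were tested. Of the melanoma markers, SOX10 stood at 266 ± 7.95 and 275 ± 1.48 CPM in shCtrl and shPRAME (mean ± SD, n = 3 libraries a group throughout) MITF at 44.6 ± 1.38 and 37.7 ± 0.740 CPM, and S100B at 54.0 ± 0.629 and 28.2 ± 1.26, while the pigment genes PMEL, MLANA, TYRP1 and DCT lay at or under 0.272 CPM in both group means and TYR was at 0. Markers of other cell types also moved with the group. The summed leukocyte markers ranged from 43.0 to 45.4 CPM in shCtrl and from 72.4 to 74.3 in shPRAME, mostly CD68 (43.9 ± 1.16 and 70.7 ± 0.767), with LYZ at 0.0707 ± 0.0437 and 1.31 ± 0.155, PTPRC at 0 and 0.925, and CD3E at 0. Summed fibroblast markers ranged from 113 to 116 CPM in shCtrl and from 88.1 to 95.3 in shPRAME, with PDGFRB (64.3 ± 1.86 and 17.4 ± 1.32) and FAP (46.1 ± 1.202 and 27.0 ± 0.771) lower and the other 5 tested markers of 7 higher, among them COL1A2 (0 and 21.6 ± 1.31), LUM (0.0102 and 9.89 ± 0.178) and PDGFRA (3.72 ± 0.224 and 12.3 ± 0.733). Keratinocyte markers summed to 27.7 to 29.6 and 23.2 to 24.4 CPM, led by KRT10 (28.2 ± 1.08 and 23.4 ± 0.613) and KRT14 (0.326 ± 0.128 and 0.209 ± 0.0205), with KRT5 and KRT1 at 0. Endothelial markers summed to at most 0.917 CPM (led by PECAM1 and KDR) and hepatocyte and enterocyte markers to at most 0.261 (led by VIL1 and FABP1). The part of these markers in the ABC results was not tested. In such bulk libraries fewer cells that express a gene and less RNA per cell cannot be told apart.

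Most expressed ABC genes differed between the groups, in both directions. Of the 46 genes, 33 had enough counts to be tested, 16 were higher in shPRAME, 14 were lower and 3 did not pass (edgeR quasi-likelihood test, Benjamini-Hochberg adjusted p under 0.05 over all tested genes). The background was high, since 74.4% of all tested genes passed, 37.7% higher and 36.8% lower. Of the 13063 tested protein-coding genes, 78.1% passed. A fold of at least 2 was reached by 8 ABC genes that were higher and 2 that were lower, against 10.1% and 8.43% of all tested genes. The libraries of the groups did not overlap for 31 of the 33, against 76.5% of all tested genes and 10454 of the 13063 protein-coding ones. The median log2 fold change of the tested ABC genes was 0.15, against 0.01 for all genes. The median size regardless of direction was 0.50, against 0.38 for all genes and 0.35 for protein-coding genes. Values ran from -1.18 (ABCG4) to 4.26 (ABCA12). ABCG4, ABCA12 and ABCC8 reached the filter on low counts only through the group where they are high, so they had to differ to be tested and lend these counts no support. When 3 libraries had to reach 1 CPM or more, a stricter filter, 30 ABC genes were tested, 27 passed and 7 reached a fold of 2. Of all 13813 genes tested with that filter, 10801 passed.

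The members are counted by role below, and each role holds few genes. Of all tested genes, 37.7% were higher, 36.8% were lower, and 18.6% passed with a fold of at least 2. Lipid and sterol transporters had 8 of 12 tested genes higher and 4 lower, at a median of 0.63 (log2 fold change). They held 8 of the 10 differences of at least 2-fold, the others being ABCG2 and ABCC8, and ABCA12, ABCG4 and ABCC8 are the 3 that the filter let in through 1 group. Organelle transporters had 6 of 8 lower and 2 higher, at a median of -0.41. Drug efflux pumps had 3 of 7 higher, 2 lower and 2 that did not pass, at a median of 0.15. Soluble members had 2 of 5 higher, 2 lower and 1 that did not pass, and of the 4 channel regulators and other ABCC genes the 1 tested was higher.

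**Figure D1:**
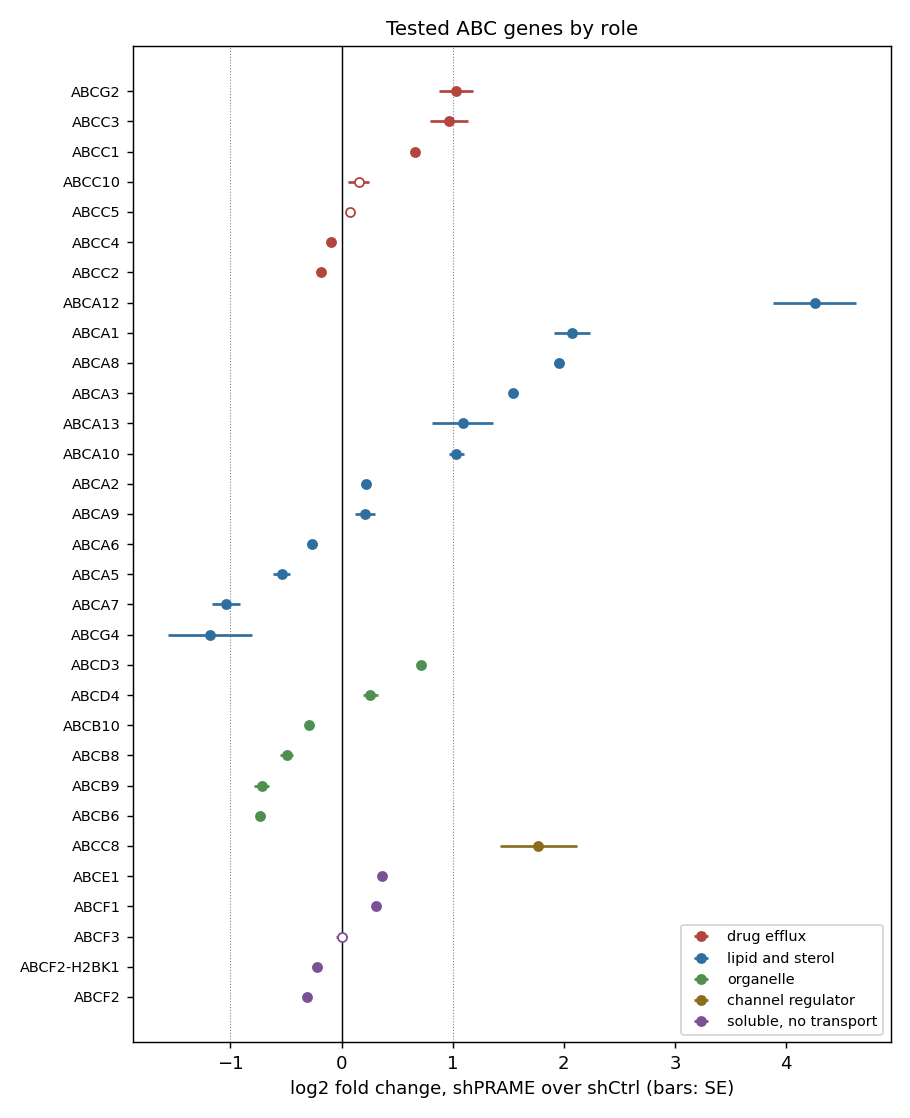
Log2 fold change of shPRAME over shCtrl (x axis) for 31 of the 33 tested ABC genes, coloured by role, with bars for the SE. Filled points passed and open points (ABCC10, ABCC5 and ABCF3) did not. Most lipid and sterol transporters lie to the right of 0 and most organelle transporters to the left.

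Summing CPM per kilobase of transcript over the members gives the level of a role in each library. Lipid and sterol transporters summed to 26.6, 26.2 and 25.5 CPM per kb in shCtrl and to 52.6, 51.2 and 49.6 in shPRAME, which is 196% of the control mean. ABCA8 is the largest term, and without it the sum went from 20.7 ± 0.422 to 29.96 ± 0.239, or 145%. Organelle transporters summed to 69.1, 68.6 and 67.2 in shCtrl and to 60.8, 60.5 and 58.3 in shPRAME, 87.6% of control. Drug efflux pumps summed to 43.8, 43.4 and 43.7 and to 46.7, 45.7 and 45.5, or 105% of control. The 4 soluble members with a length went from 123 ± 0.617 to 141 ± 0.896, or 114%. ABCF2-H2BK1 has no length and is not in that sum. In CPM, with all 5 soluble members, the sum was 111% of control. No pair of groups overlapped for any role, and each exact 2-sided permutation test gave p = 0.1, the smallest that 3 against 3 libraries allow.

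**Figure D2:**
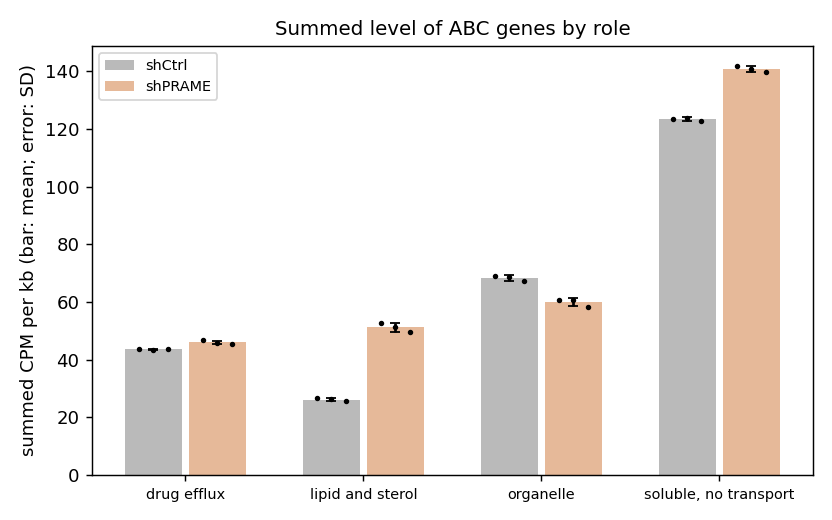
Summed level in CPM per kb (y axis) for each role except the channel regulators and other ABCC genes, which are not drawn. ABCF2-H2BK1 has no length and is not in the soluble sum. Bars show the mean of 3 libraries, error bars the SD and points the libraries. The lipid and sterol sum lies at 26.1 in shCtrl and 51.2 in shPRAME, and the drug efflux sum lies at 43.6 and 46.0.

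Among the drug efflux pumps, ABCC1 rose, ABCG2 rose from a low level, and ABCB1 was close to absent in both groups. ABCC1 (MRP1, which exports glutathione conjugates and many drugs; NCBI gene 4363, chromosome 16, 15949143 to 16143053, GRCh38) stood at 43.1, 44.5 and 44.4 CPM in shCtrl and 71.0, 68.0 and 69.3 in shPRAME. The groups lay far apart relative to their spread, at a fold of 1.58 (log2 0.66, SE 0.0336, edgeR adjusted p = 1.06e-11). ABCG2 (the breast cancer resistance protein; gene 9429, chromosome 4, 88090264 to 88231626) stood at 1.69, 1.38 and 1.91 CPM in shCtrl and 3.75, 2.96 and 3.45 in shPRAME. Every shPRAME library lay above every shCtrl library, at 2.04-fold (log2 1.03, SE 0.154, edgeR adjusted p = 1.19e-05), but the counts behind it were only 45 to 119 a library. ABCB1 (P-glycoprotein; gene 5243, chromosome 7, 87503017 to 87713295) had at most 3 reads in any library (3, 0 and 0 in shCtrl, 0, 2 and 1 in shPRAME) and was not tested. ABCB5 had 0, 0 and 2 counts and 2, 1 and 0. A single library's floor of 3 counts equals 0.088 to 0.0973 CPM, so at this depth neither gene showed a detectable difference.

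ABCC2 (MRP2, an exporter of conjugated organic anions better known from the liver canaliculus; gene 1244, chromosome 10, 99782640 to 99852594) had the highest level per length of the pumps, with 17.7 CPM per kb in shCtrl and 15.6 in shPRAME. Its CPM values were 105, 100.2 and 103 in shCtrl and 92.8, 90.8 and 88.1 in shPRAME, a small difference without overlap (log2 -0.18, SE 0.0307, edgeR adjusted p = 4.39e-05). The hepatocyte and enterocyte markers were near 0 in both groups. ABCC4 (MRP4, which exports cyclic nucleotides) was lower by less, 60.1 ± 1.25 against 56.3 ± 0.581 CPM (log2 -0.09, edgeR adjusted p = 0.0165), and without shPRAME replicate 2 it no longer passed (log2 -0.08, adjusted p = 0.085). ABCC3 (MRP3) rose from 0.964 ± 0.0830 to 1.89 ± 0.103 CPM. ABCC5 (42.7 ± 1.12 and 45.1 ± 0.392 CPM, log2 0.08, SE 0.0361, edgeR adjusted p = 0.0666) and ABCC10 (8.93 ± 0.993 and 9.93 ± 0.820 CPM, log2 0.15, SE 0.0919, edgeR adjusted p = 0.139) did not pass. Without shCtrl replicate 2, ABCC10 passed at an adjusted p of 0.0312 in edgeR (log2 0.25). ABCC11 had 1 to 7 counts a library.

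The large differences of the lipid and sterol transporters were mostly increases. ABCA8 (implicated in cholesterol efflux; gene 10351, chromosome 17, 68867289 to 68955392) stood at 31.9, 33.2 and 30.1 CPM in shCtrl and 130.5, 124 and 116 in shPRAME, 3.88-fold higher (log2 1.96, SE 0.0450, edgeR adjusted p = 2.34e-16). By level per length it moved from rank 15 of the family to rank 4. ABCA3 (the lamellar body phospholipid transporter of alveolar type II cells; gene 21, chromosome 16, 2275881 to 2340728) stood at 24.3, 22.3 and 23.7 CPM in shCtrl and 66.7, 67.8 and 70.9 in shPRAME, 2.92-fold higher (log2 1.55, SE 0.0416, edgeR adjusted p = 1.96e-15). ABCA1 (the exporter of cholesterol to apolipoprotein A-I and a classic LXR target; gene 19, chromosome 9, 104781006 to 104928155) was much rarer, at 0.976, 0.918 and 1.39 CPM in shCtrl and 5.09, 4.67 and 4.06 in shPRAME. All 3 shPRAME libraries lay above all 3 shCtrl libraries, at 4.20-fold (log2 2.07, SE 0.165, edgeR adjusted p = 4.24e-09). NIPSNAP3B overlaps ABCA1 and went from 0.680 to 3.56 CPM (log2 2.36, edgeR adjusted p = 6.63e-08), so reads in the shared bases cannot be assigned with certainty.

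ABCA7, a phospholipid transporter of the same subfamily studied in phagocytosis and Alzheimer's disease (gene 10347, chromosome 19, 1040107 to 1065572), went the other way. It stood at 5.53, 4.96 and 5.61 CPM in shCtrl and 2.72, 2.87 and 2.23 in shPRAME, 2.06-fold lower (log2 -1.04, SE 0.124, edgeR adjusted p = 8.19e-07). ABCA2, an endolysosomal lipid transporter abundant in myelinating cells, rose slightly, from 58.3 ± 3.90 to 68.0 ± 1.45 CPM (log2 0.22, edgeR adjusted p = 0.000129). The rare members that were tested also differed by at least 2-fold, from few reads. ABCA12, the keratinocyte lamellar granule lipid transporter, went from 6, 1 and 1 reads in the control libraries to 54, 55 and 55 with the PRAME hairpin (log2 4.26, SE 0.372, edgeR adjusted p = 1.52e-08), and it passed the filter on low counts only through the shPRAME libraries. ABCA13 rose from 0.403 ± 0.0726 to 0.860 ± 0.143 CPM. ABCG4, a sterol transporter of neural tissue, fell from 0.506 ± 0.0714 to 0.222 ± 0.0926 CPM (log2 -1.18, SE 0.380, edgeR adjusted p = 0.00991) and passed the filter only through the shCtrl libraries. Without shPRAME replicate 3 ABCG4 did not pass (log2 -0.86, adjusted p = 0.0596). ABCA4, ABCB4, ABCB11, ABCG1, ABCG5 and ABCG8 had too few counts to be tested. ABCG1, the usual partner of ABCA1 in cholesterol efflux, was among them.

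The 5 neighbouring genes of the ABCA6 type lie head to tail on chromosome 17, and they did not move together. The order is ABCA8, ABCA9 (gene 10350, 68974488 to 69078977), ABCA6 (gene 23460, 69078702 to 69141895), ABCA10 (gene 10349, 69148007 to 69244848) and ABCA5 (gene 23461, 69244311 to 69327133). ABCA10 stood at 12.9, 15.0 and 13.2 CPM in shCtrl and 29.2, 29.2 and 25.8 in shPRAME, 2.05-fold higher (log2 1.03, SE 0.0670, edgeR adjusted p = 2.76e-10). ABCA5 and ABCA6, between and beside the raised genes, were lower. ABCA6 had 33.7, 36.1 and 35.4 CPM in shCtrl and 29.3, 29.04 and 28.99 in shPRAME (log2 -0.27, edgeR adjusted p = 2.41e-05). ABCA5, the lysosomal member, had 12.6, 11.99 and 11.6 CPM and 8.35, 8.70 and 7.88 (log2 -0.54, edgeR adjusted p = 5.40e-06). ABCA9 had 5.92, 6.18 and 5.77 CPM and 6.63, 7.25 and 6.78, and its log2 fold change of 0.21 passed narrowly (edgeR adjusted p = 0.0476, and from 0.0171 to 0.666 over 15 alternatives, of which 4 passed; it was lost whichever of the 6 libraries was left out). The summed level of the 5 genes per length was 14.3 ± 0.536 in shCtrl and 31.2 ± 1.55 in shPRAME. ABCA9 and ABCA6 overlap by 276 bases and ABCA10 and ABCA5 by 538, and a long noncoding RNA inside ABCA8, LOC105371874, went from 0.124 to 3.10 CPM (log2 4.60, edgeR adjusted p = 2.74e-11). The counts of these neighbours are therefore not fully separate. The surrounding genes did not shift as a block, their median being 0.01 (log2 fold change) over the 20 nearest tested protein-coding genes, 11 of them above 0.

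**Figure D3:**
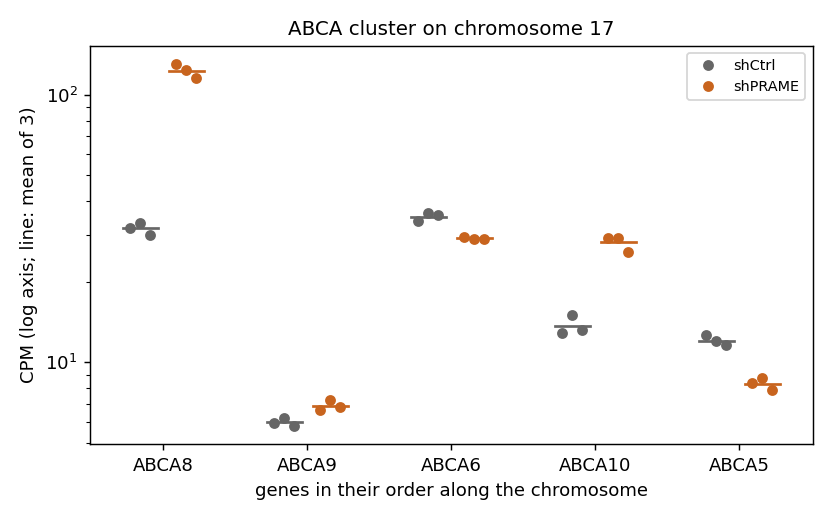
CPM on a log axis for each library at ABCA8, ABCA9, ABCA6, ABCA10 and ABCA5 in chromosomal order, with a line at the mean of each group of 3. ABCA8 and ABCA10 are higher in shPRAME, ABCA6 and ABCA5 lower, and ABCA9 nearly level.

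Transporters of organelle membranes were mostly lower, each by less than 2-fold. The mitochondrial members ABCB10, ABCB6 and ABCB8 were lower. ABCB10, a haem-pathway transporter of the inner membrane (gene 23456, chromosome 1, 229516582 to 229558707), had the highest level per length of the group in shCtrl, 17.2 CPM per kb, and 14.1 in shPRAME. Its CPM values were 63.3, 67.0 and 69.3 in shCtrl and 55.2, 54.7 and 53.3 in shPRAME, lower in each shPRAME library (log2 -0.29, SE 0.0369, edgeR adjusted p = 1.81e-06). ABCB6, a porphyrin transporter, fell furthest, from 45.5 ± 1.28 to 27.4 ± 0.584 CPM (log2 -0.73, edgeR adjusted p = 3.19e-11). ABCB8, a subunit of a mitochondrial potassium channel linked to iron export, fell from 27.1 ± 1.79 to 19.3 ± 0.888 CPM (log2 -0.49). ABCB9, a lysosomal peptide transporter, fell from 22.1 ± 1.76 to 13.4 ± 0.324 CPM (log2 -0.72).

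Of the peroxisomal members, ABCD3 (PMP70), which imports branched-chain and dicarboxylic acyl-CoA, rose in every library from 42.0 ± 0.251 to 69.1 ± 2.11 CPM (log2 0.72, SE 0.0345, edgeR adjusted p = 4.69e-12), and it moved from rank 9 to rank 5 by level per length. ABCD2 had 0 to 7 counts a library and was not tested. ABCD4, which works in lysosomal cobalamin export, rose from 12.4 ± 0.533 to 14.9 ± 0.883 CPM (log2 0.26, edgeR adjusted p = 0.00239).

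TAP1 and TAP2, ABC genes under other symbols that load peptides for MHC class I, were both lower, TAP1 from 17.7 ± 1.24 to 8.84 ± 0.430 CPM (log2 -1.004, edgeR adjusted p = 1.08e-09) and TAP2 from 43.8 ± 3.26 to 30.8 ± 1.52 (log2 -0.51). CFTR, the chloride channel of the ABCC group, had no counts.

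The channel regulators and other ABCC genes were rare. ABCC8, the sulfonylurea receptor of the beta-cell potassium channel (gene 6833, chromosome 11, 17392498 to 17476845), stood at 0.178, 0.337 and 0.162 CPM in shCtrl and 0.992, 0.638 and 0.724 in shPRAME, from 5 to 31 counts a library. It was higher in each shPRAME library (log2 1.77, SE 0.348, edgeR adjusted p = 0.000204) and passed the filter only through them. KCNJ11, the pore it pairs with, had 8, 0 and 1 reads in shCtrl and 13, 14 and 12 in shPRAME (log2 2.03, edgeR adjusted p = 0.00771), and it too was tested only through the shPRAME libraries, at a level below the stricter filter. ABCC12 had no counts in shCtrl and 7, 11 and 9 in shPRAME, which is at least 8.74-fold higher against a floor of 3 counts over the group, and was not tested. ABCC6 and its pseudogenes ABCC6P1 and ABCC6P2 share near-identical sequence and had 0 to 7 counts a library. ABCC9 had 2 counts in all.

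Of the soluble members, ABCE1, ABCF1 and ABCF2 had the highest levels of the family per length in both groups, ABCF3 ranked 7 in shCtrl and 8 in shPRAME, and ABCF2-H2BK1 had no length. Their differences were below 2-fold. ABCE1, which splits ribosomes after termination (gene 6059, chromosome 4, 145098311 to 145129524), ranked first in both groups, at 51.9 and 66.7 CPM per kb. It stood at 199.6, 202 and 209 CPM in shCtrl and 264, 262 and 259 in shPRAME, without overlap (log2 0.36, SE 0.0249, edgeR adjusted p = 6.15e-10). ABCF1, a translation initiation factor partner, rose from 115 ± 2.09 to 143 ± 0.845 CPM (log2 0.31, edgeR adjusted p = 9.00e-09). ABCF2 fell from 97.8 ± 3.11 to 78.9 ± 2.40 CPM (log2 -0.31) and the readthrough gene ABCF2-H2BK1, which covers all of ABCF2, from 62.9 ± 2.45 to 54.0 ± 4.20 (log2 -0.22). Reads of this pair cannot be told apart with certainty, and their sum stood at 161 ± 0.751 in shCtrl and 133 ± 2.55 CPM in shPRAME. ABCF3 had 30.4 ± 1.27 and 30.4 ± 0.954 CPM (log2 0.00, SE 0.0462, edgeR adjusted p = 1.00), the smallest difference of the family.

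**Figure D4:**
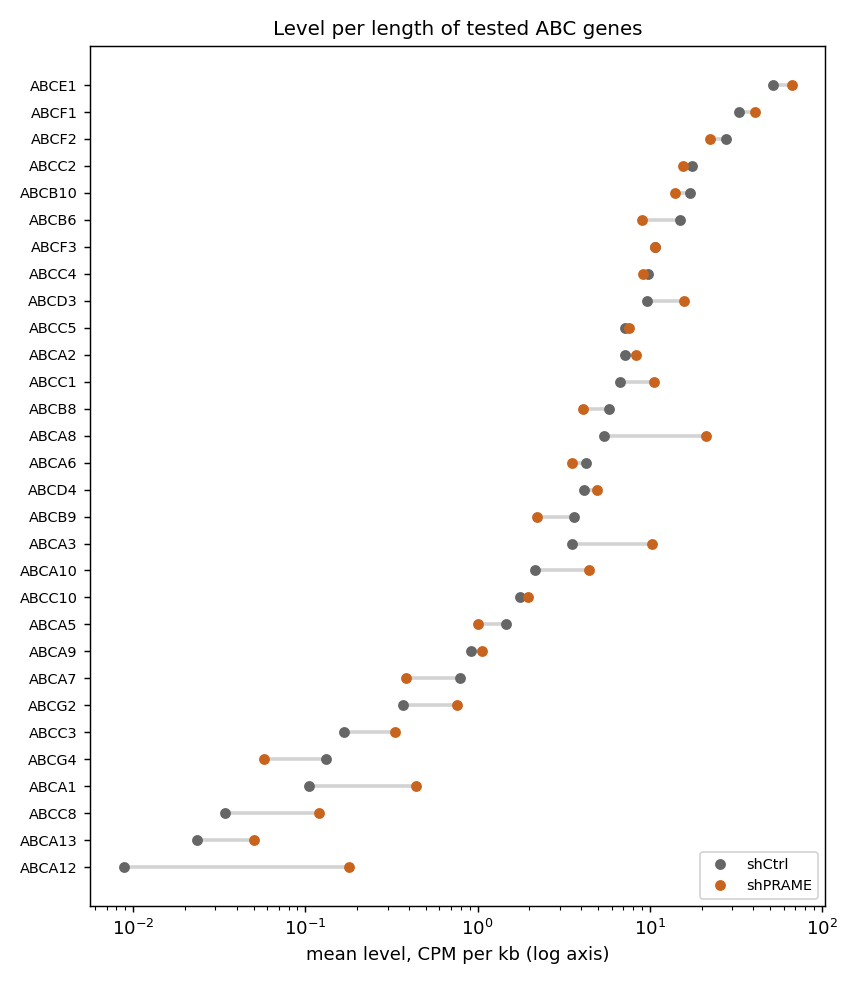
Mean level in CPM per kb on a log axis for 30 tested ABC genes with a transcript length, with shCtrl and shPRAME marked separately. ABCE1, ABCF1 and ABCF2 lead in both groups, and ABCA8, ABCA3 and ABCD3 move up in shPRAME.

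The other genes of the same pathways were counted from lists set for this comparison. Their counts are to be read against all tested genes, of which 37.7% were higher and 36.8% lower. Of 14 tested nuclear receptors and other factors known to regulate ABC genes, 4 were higher and 7 lower. SREBF2, the master factor of sterol synthesis, rose from 52.7 ± 2.21 to 103 ± 0.163 CPM. RXRG, itself an RXR receptor, fell from 61.8 ± 3.27 to 10.2 ± 0.767 CPM. NR1H3 (LXR alpha) and RXRA, which act on ABCA1 in many cells, were lower, from 5.79 ± 0.898 to 4.20 ± 0.427 and from 28.7 ± 1.28 to 20.6 ± 1.40 CPM. RXRB was higher, from 23.2 ± 1.34 to 34.0 ± 0.359 CPM, and the more abundant NR1H2 (LXR beta) did not pass, at 49.2 ± 1.62 and 46.5 ± 0.650 CPM (edgeR adjusted p = 0.0511). The part of these receptors in the ABCA1 level was not tested. Of 13 tested genes of cholesterol uptake, efflux and endosomal export, 9 were higher and 3 lower. NPC2, which hands cholesterol out of the lysosome, rose from 43.5 ± 1.07 to 143 ± 5.49 CPM, and the lysosomal acid lipase LIPA fell from 126 ± 4.45 to 42.9 ± 0.891.

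Beside the organelle transporters, 17 tested genes of peroxisomal import and fatty acid oxidation included 1 higher and 8 lower, such as SCP2 (63.5 ± 3.92 and 41.0 ± 1.99 CPM). Haem synthesis and iron-sulfur genes split, with 7 of 17 higher and 6 lower. CIAO1, of the cytosolic iron-sulfur assembly, fell from 155 ± 2.62 to 112 ± 2.58 CPM. In cobalamin handling, 3 of 7 were higher and 3 lower, with MTR at 202 ± 4.62 and 283 ± 8.40 CPM and MMADHC at 189 ± 2.63 and 119 ± 1.67. For the pumps of glutathione conjugates, 13 tested glutathione genes had 2 higher, such as GSS (65.0 ± 1.28 and 78.4 ± 0.619 CPM), and 8 lower, such as MGST1 (20.4 ± 0.855 and 3.71 ± 0.546). Genes of translation, ribosome recycling and stalling split 6 higher to 5 lower of 11. EIF2S2 stood at 217 ± 2.28 and 254 ± 5.44 CPM and LTN1 at 136 ± 5.92 and 79.0 ± 2.51.

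The chromosomal neighbours of each ABC gene were compared with it. Of the 33 tested ABC genes, 23 (69.7%) had the sign of the median of their 20 nearest tested protein-coding genes, 10 a side. Over all 13061 tested protein-coding genes with such neighbours the share was 66.3%, so the family lay near the background. The 5 genes of the chromosome 17 cluster share 1 set of neighbours. Among the organelle transporters it was 7 of 8, and among the lipid and sterol transporters 6 of 12. For ABCB6 the median of the neighbours was -0.50, with 3 of 20 above 0, against its own -0.73. For ABCB8 it was -0.29. Around ABCA1 they stood at 0.31, with 17 of 20 above 0, and around ABCG4 at 0.73, with 19 above 0 although ABCG4 itself was lower. DNA copy number was not measured, and its part in these values was not tested. When the neighbours' median was removed from each gene, 15 ABC genes were higher and 12 lower, and 23 of the 30 calls were kept in the same direction. Among those lost, ABCC2 (-0.03), ABCD4 (0.09), ABCA9 (0.20) and ABCF2 (-0.07) no longer passed. Calls of lower organelle transporters that are not reported here by name were lost too, so fewer organelle transporters were then lower. ABCB6 stood at -0.23 and ABCB8 at -0.20 and still passed.

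**Figure D5:**
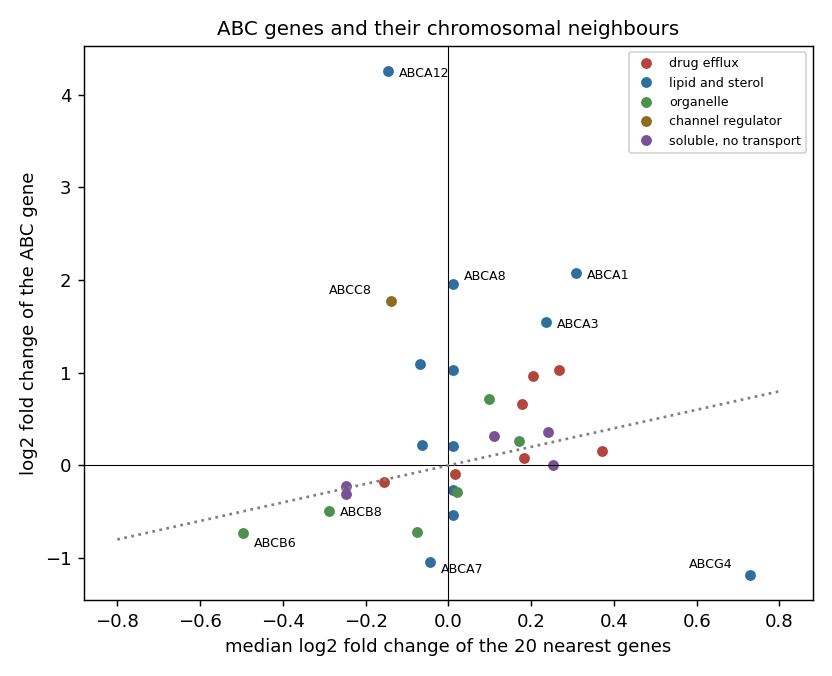
Log2 fold change of 31 tested ABC genes (y axis) against the median of its 20 nearest tested protein-coding genes (x axis), coloured by role. ABCB6 lies at a neighbour median of -0.50, and ABCA8 and ABCA3 lie far above medians of 0.01 and 0.24.

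The 13 ABC genes left untested had few reads: none had more than 14 counts in any library, and the highest mean over the 6 libraries was 0.268 CPM. Among untranslated relatives of the family, the pseudogene ABCA11P rose from 3.55 to 8.05 CPM (log2 1.18, edgeR adjusted p = 8.11e-09).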

How the data were processed

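PolyA RNA from 3 shCtrl and 3 shPRAME libraries of A375SM cells was sequenced as pairs of 150-base reads, per the labels' protocols. The authors deposited whole-number counts per NCBI gene, not normalized, per the file headers. Tools in the submitters' processing notes are fastp, STAR and Salmon, with builds GRCh38 and hg38; the counting tool, versions and strand setting are not given there or in the labels. Repeated rows (34 of 40929) were added; 40789 of 40895 genes matched RefSeq (GRCh38.p14) for symbols, types and coordinates, and 106 did not. Lengths were those of the longest GENCODE 29 transcript (45 of 46 members; ABCF2-H2BK1 had none).

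edgeR 4.0.16 (R 4.3.3; filterByExpr, TMM, glmQLFit, glmQLFTest, 2-sided, group as the only term) was fitted on all 15954 genes that passed the filter, with Benjamini-Hochberg adjustment. CPM are scaled to TMM effective library sizes (TMM factors 0.978 to 1.02). The SE of a log2 fold change is the log2 fold change over the root of the quasi-likelihood F. Totals of 30842788 to 34107332 counts put 3 counts at 0.088 to 0.0973 CPM; floors cover counting error only. No replicates were near-duplicates, with a chi-square per gene of 2.46 to 8.29 between libraries of a group. Alternatives used limma 3.58.1 (voom) and DESeq2 1.42.0, among others.

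Members and lists were chosen with earlier results of these data known, and all 183 listed genes were found. Named with values per library were members that passed with a fold of at least 2 and a mean of at least 1 CPM, the member with the highest level per length of each role, ABCB1, ABCC1, ABCG2 and PRAME; of each pathway list, the most significant gene higher and the most significant lower, at 1 CPM or more on average, plus TAP1, TAP2 and CFTR; and the 2 highest members of each marker list. Other genes were named after their values were seen. Some members and listed genes are counted but not reported here by name.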

Additional observations from a re-analysis of the deposited data

How the results depend on the processing

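Of the 30 ABC calls, the number kept in the same direction was 30 with RLE size factors and with limma-voom, 29 with scaling to the library total only, without a filter and with the replicate block, 28 with DESeq2, 27 of the 27 still tested with a stricter filter, 28 to 29 with a library left out, and 21 against a fold of 1.2. Scaling to the library total moved the median of all genes to 0.06, gave 17 higher and 13 lower, lost ABCC4 (log2 -0.04, edgeR adjusted p = 0.250) and gained ABCC5 (0.13, 0.00447). Drug efflux pumps that were lower numbered 1 with that scaling and with DESeq2, 0 against a fold of 1.2, and 1 to 2 with a library left out. The tested channel regulators that were higher numbered 2 without a filter and 0 with the stricter one. Against a fold of 1.2, 3921 of all genes were higher and 3805 lower, 8 ABC genes were lower, 1 organelle transporter was higher and 1 soluble member lower. With the neighbours' shift removed, 1 soluble member was lower, ABCF2-H2BK1 (0.0270, edgeR adjusted p = 0.624), ABCC10 (-0.22, 0.0434) and ABCC5 (-0.11, 0.0147) changed sign, and ABCF3 passed (-0.25, 0.000113). ABCF3, at 0 in the reported fit, was 0.00082 with RLE, 0.0504 with the library total, 0.0059 without a filter, 0.00086 with DESeq2, 0.00010 with voom, 9.5e-06 with the block and -0.030 to 0.0271 with a library left out.

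Log2 ratios of the summed levels were 0.22 for the family, 0.87 for lipid and sterol and 0.16 for soluble members with no division by length (0.19, 0.97 and 0.19 with it). With the library total they were 0.24 for the family, 0.13 for drug efflux, -0.14 for organelle and 0.24 for soluble members. Leaving out a library gave 0.19 to 0.20 for soluble members. Without ABCA8, an alternative added after the data were seen, the lipid and sterol ratio was 0.54. The causes of these changes were not tested.

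Same-numbered libraries did not deviate together (correlations of -0.06, -0.11 and -0.10). With 3 libraries a group such correlations cannot show whether the numbers mark a pairing, and the labels do not say. With the replicate block 11603 of all genes and 29 ABC genes passed, and ABCA9 was the call lost (adjusted p = 0.0734).

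Depth limits the 13 untested genes and ABCG4, ABCC8 and ABCA12, which lie near the filter. Counts of overlapping genes and near-identical copies cannot be separated, the strand setting is not given, and p-values cover the spread between libraries only.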
